A study of Mus musculus with 8 samples.

Results

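The genes described here are Nts, Vip, Adcyap1, Nms, Cck, Grp, Prok2 and Bdnf, which encode neurotensin, vasoactive intestinal peptide (VIP), pituitary adenylate cyclase-activating peptide (PACAP), neuromedin S, cholecystokinin, gastrin-releasing peptide, prokineticin 2 and brain-derived neurotrophic factor. They were taken by symbol as signalling peptides of the hypothalamus. They are 8 of the 55487 genes in the count table, and all 8 were among the 17047 genes with enough counts to be tested. Poly(A) RNA of the hypothalamus was measured in C57BL/6J mice, 4 of which breathed 7% oxygen for 2 h (hypoxia) while the other 4 stayed at 21% oxygen (normoxia). All mice were of this 1 inbred strain and carried no named allele. The samples are described as biological replicates. The sources used here do not give age, sex, time of day or any batch.

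Each of these genes encodes a secreted peptide or protein that neurons release. Most of these are cut from a larger precursor by proteases in the secretory pathway. Neurotensin, neuromedin S, cholecystokinin, gastrin-releasing peptide and prokineticin 2 act on receptors that couple mainly to Gq and calcium. VIP and PACAP act on receptors that couple mainly to Gs and cyclic AMP. BDNF acts on the receptor tyrosine kinase TrkB. Within the hypothalamus, Vip, Grp, Nms and Prok2 are known from neurons of the suprachiasmatic nucleus, the circadian pacemaker, Nts from the lateral hypothalamus and preoptic area, and Adcyap1 from the ventromedial nucleus and the mammillary region. Cck and Bdnf are also strongly expressed by pyramidal neurons of cortex and hippocampus, and Cck by many thalamic neurons.

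Total counts ran from 16994473 to 21694383 per library, with means of 20242300 under hypoxia and 19737700 under normoxia (exact permutation test, two-sided, p = 0.743). All 22 markers of hypothalamic nuclei were detected at a level that could be tested, among them Pmch, the melanin-concentrating hormone precursor, at 345 ± 27.5 CPM (counts scaled to library size) under hypoxia and 261 ± 81.6 under normoxia (SD, n = 4 each). Normoxia replicate 2 stood apart in regional markers: it was the lowest library for 20 of these 22 genes, and it held 384 CPM of Slc17a7, the vesicular glutamate transporter of cortex and hippocampus, against 7.92 to 80.3 CPM in the other 7 libraries. Normoxia replicate 1 held 133 CPM of Prkcd, a marker of thalamic relay neurons, against 19.1 to 36.3 CPM elsewhere. Values are therefore given with and without these libraries where it matters. In bulk tissue, fewer cells of a type and less RNA per cell cannot be told apart.

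Because most of these genes are textbook targets of cyclic AMP and calcium signalling to the transcription factor CREB, and Prok2 of the clock factors that bind E-boxes, the stretch around each such motif in the proximal promoter is shown here. The sequences are from RefSeq on GRCm38.p6, are written 5′ to 3′ on the gene's own strand, and carry the motif in capitals (TGACG, or CGTCA where it lies on the opposite strand, and CACGTG for the E-box).
Vip: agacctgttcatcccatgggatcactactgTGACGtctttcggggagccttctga
Adcyap1: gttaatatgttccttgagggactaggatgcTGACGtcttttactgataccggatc
Cck: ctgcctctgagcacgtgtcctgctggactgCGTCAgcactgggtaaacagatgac
Nts: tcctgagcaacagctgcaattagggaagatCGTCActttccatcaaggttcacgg
Bdnf: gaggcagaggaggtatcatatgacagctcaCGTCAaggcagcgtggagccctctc
Prok2: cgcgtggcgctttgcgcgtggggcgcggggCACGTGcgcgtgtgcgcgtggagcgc
The Vip stretch lies at chr10:5639109-5639163 on the plus strand, with its motif 79 to 75 bases before the transcription start. The Adcyap1 stretch lies at chr17:93198896-93198950 on the plus strand, 91 to 87 bases before its first listed start. The Cck stretch lies at chr9:121495717-121495771 on the minus strand, with the motif 47 to 43 bases before the start and an E-box, in lower case above, 66 to 61 bases before it. The Nts motif lies farther out, 166 to 162 bases before the start, in chr10:102490560-102490614 on the minus strand. The Bdnf stretch, at chr2:109692371-109692425 on the plus strand, belongs to the start numbered 3 of the 7 listed for this gene, and its motif lies 35 to 31 bases before it. The Prok2 E-box lies 135 to 130 bases before the start, in chr6:99726502-99726557 on the minus strand.

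Promoters were matched for 7 of the 8 genes. Over the 250 bases before each start and on both strands, TGACG was found in 6 of the 14 promoters of these genes (5 genes, since Bdnf has 7 starts and Adcyap1 2) and in 17.8% of all 32851 promoters of this length. The full palindrome TGACGTCA was found in 0 of the 14 and in 1.55% of all promoters. CACGTG was found in 2 of the 14, those of Cck and Prok2, and in 6.02% of all promoters. ACGTG, a core of the hypoxia response element that any CACGTG also contains on both strands, was found in 6 of the 14 (4 genes) and in 16.6% of all promoters. GCGTG, the other form of that core, was found in 3 of the 14, of Prok2 and Bdnf, a share below the 28.2% of all promoters. The 2 Adcyap1 windows overlap and share 1 TGACG match. These matches describe letters in the window and were not tested for binding.

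None of the 8 transcripts passed the threshold after 2 h of hypoxia. The nearest to it were Nts, with a mean 1.31-fold higher under hypoxia, and Cck, with a mean 2.32-fold higher under normoxia. The edgeR quasi-likelihood fit, adjusted by Benjamini-Hochberg over all genes, called 0 of 8 at an adjusted p under 0.05, where 2.15% of all genes tested were called. At an adjusted p under 0.1 it called 1 of 8, Nts, where 6.21% of all genes were called. At an unadjusted p under 0.05 the count was 2 of 8, Nts and Cck, where 19.3% of all genes were under it. DESeq2 called 1 of 8, Nts, where it called 5.9% of all genes, and limma-voom called 0 of 8, where it called 2.44%. At an unadjusted p under 0.05 each of these tools also had 2 of 8, where 10.7% of the 30444 genes DESeq2 gave a p were under it and 19.6% of genes were in limma-voom. With replicate number as a block, which the data did not bear out as a pairing, 0 of 8 and 0.123% of all genes were called. The log2 fold change was above 0 for 4 of 8 genes, where 48.2% of all genes were above 0, and its median was 0.02 beside -0.01 over all genes. The 4 hypoxia libraries overlapped the 4 normoxia libraries in every one of the 8 genes, where 13.4% of all genes did not overlap.

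**Figure D1:**
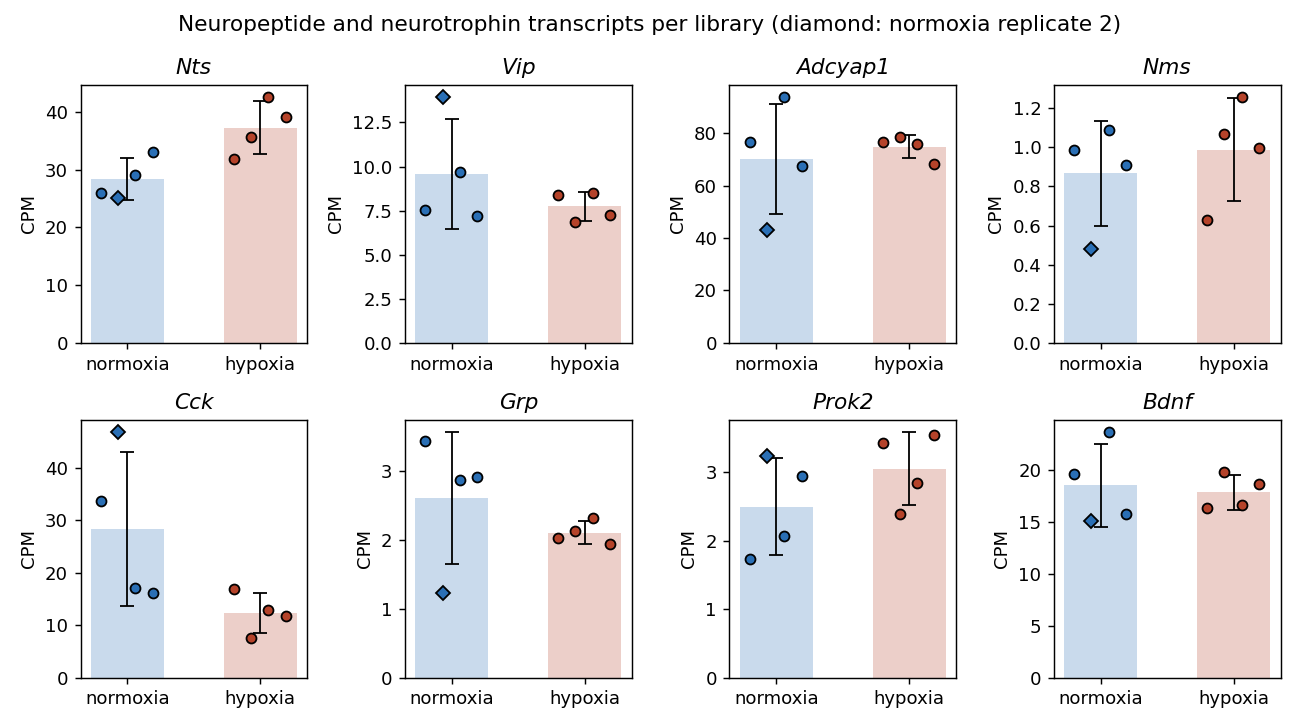
TMM-scaled CPM of the 8 genes, each on its own linear axis from 0; points are libraries, bars the mean and error bars 1 SD (n = 4 per group), and the diamond is normoxia replicate 2. Nts is higher in 3 hypoxia libraries than in any normoxia library, and the normoxia libraries of Cck spread from 16.1 to 46.8 CPM.

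Nts (ENSMUSG00000019890; mm10 chr10:102481756-102490486, minus strand, 1 annotated transcript with 1248 bases of exon) encodes the precursor of neurotensin and neuromedin N, peptides that lower body temperature and food intake and modulate dopamine neurons. Its level was 31.8, 35.5, 42.5 and 39.1 CPM in hypoxia replicates 1 to 4 and 26.0, 25.2, 29.1 and 33.1 CPM in normoxia replicates 1 to 4. The groups overlapped in a single pair, because hypoxia replicate 1 lay below normoxia replicate 4. The means were 37.2 ± 4.62 and 28.3 ± 3.60 CPM (SD, n = 4 each). The log2 fold change was 0.39 ± 0.11 (SE), which missed the threshold in edgeR (adjusted p = 0.0984) and passed it in DESeq2 (adjusted p = 0.0280). The difference stayed above 0 whichever library was left out, from 0.32 to 0.48, and it was 0.35 without normoxia replicate 2. Without normoxia replicates 1 and 2 together, a setting chosen after the values were seen, it was 0.26 ± 0.11 (edgeR, adjusted p = 0.254). Summed striatal markers were also higher in mean under hypoxia, at 983 to 1533 CPM against 604 to 1419, and all 12 of them had a log2 fold change above 0, with 0 of 12 called by edgeR and 1 of 12 at an unadjusted p under 0.05 (2.15% and 19.3% of all genes). Hypothalamic markers leaned the same way with all 8 libraries, with 19 of 22 above 0 (48.2% of all genes) and 0 of 22 called (2.15%). Their median was 0.23 with all libraries and 0.09 without normoxia replicate 2, the lowest library for 20 of the 22. It was -0.06 without normoxia replicates 1 and 2 together. The part of either in the Nts values was not tested.

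Cck (mm10 chr9:121489824-121495694, minus strand, 6 annotated transcripts) encodes cholecystokinin, the gut and brain satiety peptide. It stood at 16.8, 7.51, 12.8 and 11.8 CPM in hypoxia replicates 1 to 4 and at 33.6, 46.8, 17 and 16.1 CPM in normoxia replicates 1 to 4. The 2 high libraries, normoxia replicates 1 and 2, set the difference in means, while normoxia replicates 3 and 4 lay within 1 CPM of the highest hypoxia library. The means were 12.2 ± 3.82 CPM under hypoxia and 28.4 ± 14.7 under normoxia, and the log2 fold change was -1.21 ± 0.36 (edgeR, adjusted p = 0.116). Without normoxia replicate 2 it was -0.85 (adjusted p = 0.126). Without normoxia replicates 1 and 2 together, a setting chosen after the values were seen, it was -0.43 ± 0.24 (adjusted p = 0.366). These are the libraries noted above: normoxia replicate 2 had the highest sum of cortical and hippocampal markers, 642 CPM against 133 to 215 elsewhere, and normoxia replicate 1 the highest sum of thalamic markers, 1135 CPM against 621 to 822 elsewhere. The part of those regions in the Cck values was not tested.

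Grp encodes gastrin-releasing peptide, a bombesin-like peptide of the light-receiving core of the suprachiasmatic nucleus. It was measured at 2.03, 2.13, 2.32 and 1.95 CPM in hypoxia replicates 1 to 4 and at 3.43, 1.22, 2.87 and 2.91 CPM in normoxia replicates 1 to 4, from 23 to 73 reads per library. The lowest of all values was that of normoxia replicate 2, and the other 3 normoxia libraries were the highest. With all libraries the log2 fold change was -0.31 ± 0.27 (edgeR, adjusted p = 0.573). Without normoxia replicate 2 the normoxia mean was 3.07 ± 0.314 CPM against 2.11 ± 0.160 under hypoxia, and the log2 fold change was -0.54 ± 0.16, still not past the threshold (edgeR, adjusted p = 0.0860). The groups then did not overlap, with hypoxia the lower, as held for 10.9% of all genes without that library. Without normoxia replicate 1, in contrast, it was -0.15 ± 0.29 (adjusted p = 0.822). Reads of Grp cannot be told apart from those of AC152076.4 on the opposite strand unless the counting used strand, a setting the sources used here do not give.

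Vip (mm10 chr10:5639218-5647617, plus strand, 2 annotated transcripts) marks the same core neurons and encodes the peptide that synchronises them. Its level was 8.37, 6.87, 8.50 and 7.24 CPM in hypoxia replicates 1 to 4 and 7.52, 13.9, 9.71 and 7.17 CPM in normoxia replicates 1 to 4. Apart from normoxia replicate 2, which was the highest, all values lay between 6.87 and 9.71 CPM and the groups were interleaved. Its log2 fold change was -0.30 ± 0.20 (edgeR, adjusted p = 0.453), and -0.06 ± 0.14 without normoxia replicate 2 (adjusted p = 0.838). Vip is also made by cortical interneurons, and the high cortical markers of that library stand beside its Vip value, their part in which was not tested.

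Adcyap1 (mm10 chr17:93199017-93206537, plus strand, 5 annotated transcripts) encodes PACAP, a peptide of stress, feeding and sympathetic control. It had the highest mean CPM of the 8 genes, with 76.6, 78.4, 76.0 and 68.3 in hypoxia replicates 1 to 4 and 76.4, 43.0, 93.7 and 67.5 in normoxia replicates 1 to 4. The hypoxia libraries lay inside the range of the normoxia libraries. The means were 74.8 ± 4.47 and 70.2 ± 21.1 CPM, and the log2 fold change was 0.09 ± 0.19 (edgeR, adjusted p = 0.826). Its sign turned without normoxia replicate 2, to -0.07 ± 0.10, so no direction can be given. That library was also the lowest in the sum of 5 mammillary markers, 14.3 CPM against 25.6 to 42.4 elsewhere.

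Nms (mm10 chr1:38939149-38950276, plus strand, 2 annotated transcripts) encodes neuromedin S, a peptide largely restricted to the suprachiasmatic nucleus in the brain. It was the lowest of the 8, at 0.629, 1.07, 1.26 and 0.998 CPM in hypoxia replicates 1 to 4 and 0.987, 0.479, 1.09 and 0.908 CPM in normoxia replicates 1 to 4. These values rest on 9 to 26 reads per library. The log2 fold change was 0.19 ± 0.30 (edgeR, adjusted p = 0.778) and -0.0026 without normoxia replicate 2.

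Prok2 (mm10 chr6:99711299-99726392, minus strand, 4 annotated transcripts) encodes prokineticin 2, an output signal of the pacemaker that is directly controlled by the clock. It was at 3.43, 2.40, 2.85 and 3.54 CPM in hypoxia replicates 1 to 4 and at 1.74, 3.24, 2.07 and 2.95 CPM in normoxia replicates 1 to 4, from 36 to 71 reads. Both groups covered the range from 2.40 to 3.24 CPM. This gave a log2 fold change of 0.29 ± 0.23 (edgeR, adjusted p = 0.518) and 0.44 ± 0.22 without normoxia replicate 2 (adjusted p = 0.276), but 0.15 ± 0.21 without normoxia replicate 1 (adjusted p = 0.741). The 4 suprachiasmatic peptides thus had 2 log2 fold changes above 0 (Prok2, and Nms, whose sign turned without normoxia replicate 2) and 2 below 0, and none of the 4 was called. Summed markers of that nucleus, of which Zfhx3 had the highest level, were 97.6 to 120 CPM under hypoxia and 104 to 139 CPM under normoxia. Of these 7 markers, 2 had a log2 fold change above 0 (48.2% of all genes) and 0 were called by edgeR (2.15%). Their median was -0.27, and -0.13 without normoxia replicate 2. The list includes the receptors Vipr2 and Prokr2, which are also described below.

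Bdnf (mm10 chr2:109674700-109727007, plus strand, 11 annotated transcripts from several promoters) encodes the neurotrophin that is released by active neurons and restrains feeding through the ventromedial hypothalamus. It stood at 16.3, 19.8, 16.7 and 18.7 CPM in hypoxia replicates 1 to 4 and at 19.7, 15.1, 23.7 and 15.8 CPM in normoxia replicates 1 to 4. The hypoxia values all lay inside the normoxia range. Hypoxia relative to normoxia gave a log2 fold change of -0.05 ± 0.14 (edgeR, adjusted p = 0.876), which turned to 0.09 without normoxia replicate 3. The counts are per gene, so its promoters could not be separated. Gm45346 on the strand opposite Bdnf, like Gm26748 opposite Prok2, shares the limit given for Grp.

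**Figure D2:**
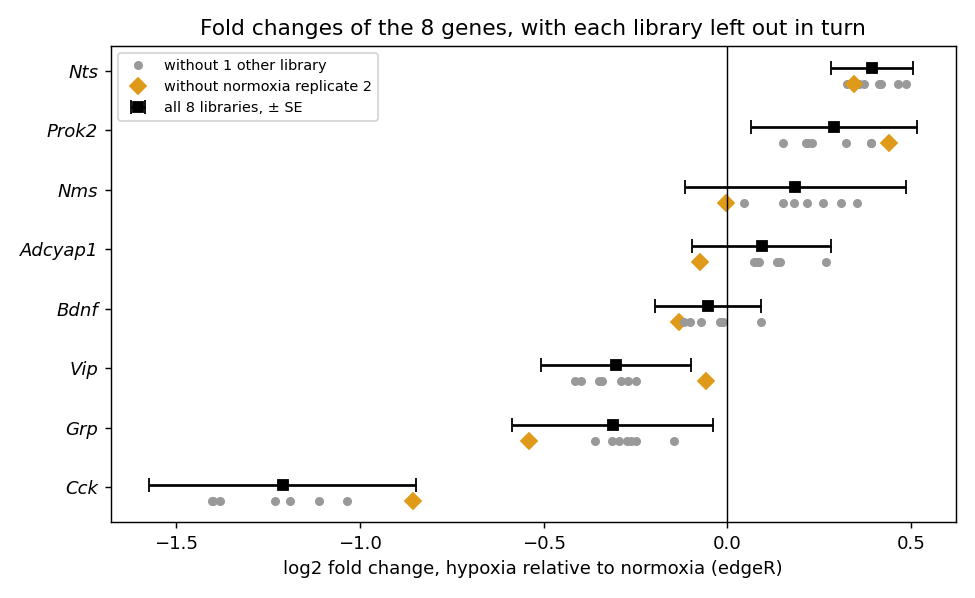
Log2 fold change of each of the 8 genes, hypoxia relative to normoxia, from edgeR; squares are all 8 libraries with 1 SE, circles leave out 1 library and diamonds leave out normoxia replicate 2. Without that library Cck moves from -1.21 to -0.85, Vip from -0.30 to -0.06 and Grp from -0.31 to -0.54, and Adcyap1 changes sign.

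For 5 of the genes (Nts, Adcyap1, Nms, Grp and Bdnf) the minimum was in normoxia replicate 2, and for 2 (Vip and Cck) the maximum was. Across all genes tested it was the lowest or the highest library for 51.5%. The SD within normoxia was larger than within hypoxia for all of the 8 genes but Nts, a difference that was not tested: it was 21.1 against 4.47 CPM for Adcyap1, 3.11 against 0.811 for Vip, 0.958 against 0.160 for Grp and 14.7 against 3.82 for Cck. The map of the genes beside marker sums shows the same library as the outlying column for Vip, Adcyap1, Nms and Grp and for hypothalamic, mammillary and cortical markers.

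**Figure D3:**
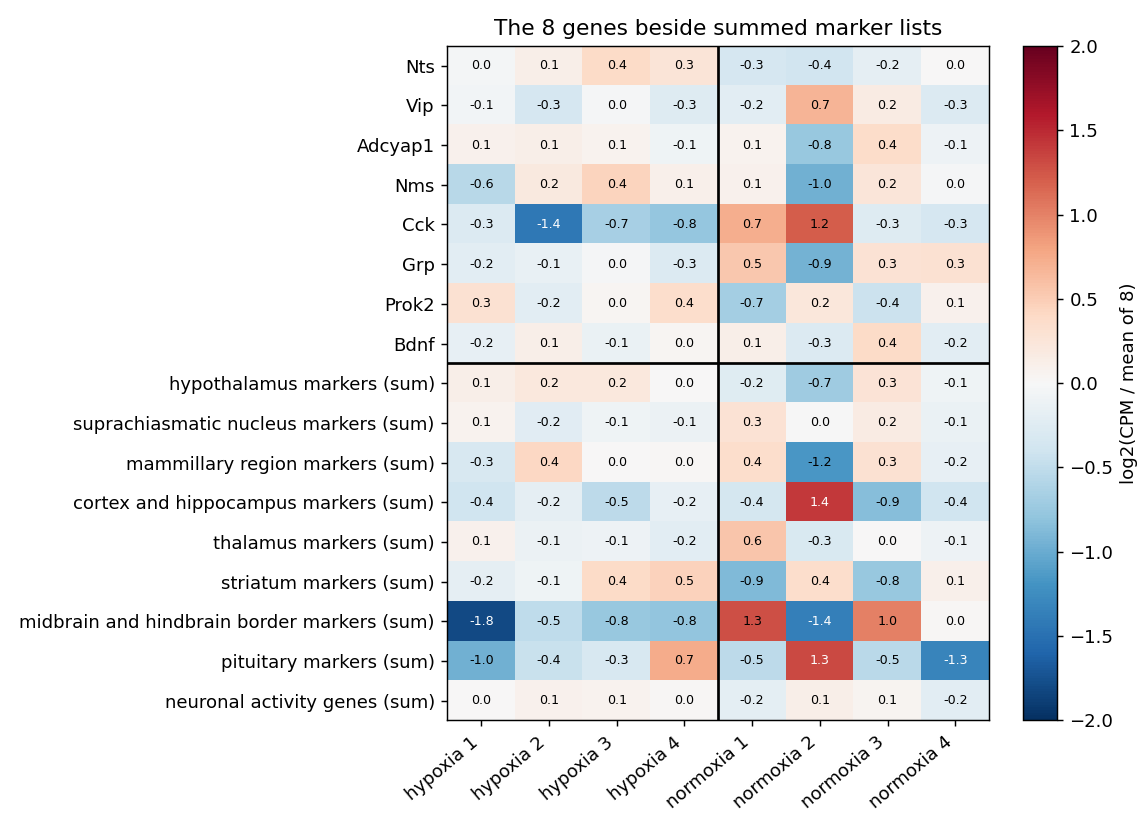
Each cell is the log2 ratio of a library's CPM to the mean over the 8 libraries, for the 8 genes above the line and for sums over marker lists and neuronal activity genes below it. The column of normoxia replicate 2 holds the lowest hypothalamic sum, 510 CPM against 702 to 1004, and the highest cortical and hippocampal sum, 642 CPM against 133 to 215.

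Levels were compared between genes as RPKM, that is CPM per kilobase of exon. The order of the means over 8 libraries was Nts at 26.3 RPKM, Adcyap1 at 19.2, Cck at 15.6, Bdnf at 2.93, Vip at 2.55, Grp at 1.60, Prok2 at 1.45 and Nms at 0.926. Nts exceeded Adcyap1 in 7 of 8 libraries, and Adcyap1 exceeded Cck in 6 of 8, in all 4 hypoxia libraries but only 2 of 4 normoxia libraries. The step from Cck to Bdnf held in 8 of 8 libraries, with Cck at 5.76 to 35.9 RPKM and Bdnf at 2.43 to 3.81. Bdnf and Vip overlapped in range, as did Vip and Grp, Grp and Prok2, and Prok2 and Nms, although each exceeded the next in 7, 7, 5 and 6 of 8 libraries. The 3 abundant transcripts were therefore clear of the other 5. The order of neighbours inside each of these groups was within the spread of libraries. Among the 5, Bdnf stayed above the highest values of Grp, Prok2 and Nms (2.32, 1.85 and 1.25 RPKM). Vip, at no less than 2.02 RPKM, stayed above those of Prok2 and Nms.

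The receptors were examined next. Of 15 receptor genes for these ligands, 14 could be tested, 0 were called by edgeR (2.15% of all genes), and 4 had an unadjusted p under 0.05 (19.3% of all genes): Ntsr2, Vipr2, Adcyap1r1 and Ntrk2. Their median log2 fold change was 0.09, and 9 of the 14 were above 0 (48.2% of all genes). DESeq2 called 1 of them, Ntsr2, and 5.9% of all genes. Non-overlapping groups were found for 1 of 14, again Ntsr2, a share below the 13.4% of all genes. Vipr2, Ntrk2, Sort1 and Nmur2 have annotated genes on the opposite strand, so their counts and RPKM share the limit given for Grp.

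Ntsr2, the low-affinity neurotensin receptor, which is prominent in astrocytes, was at 198, 211, 214 and 189 CPM in hypoxia replicates 1 to 4 and at 183, 147, 175 and 178 CPM in normoxia replicates 1 to 4. Every hypoxia library was above every normoxia library. The log2 fold change was 0.25 ± 0.07 (edgeR adjusted p = 0.110, DESeq2 adjusted p = 0.0451). It was 0.19 without normoxia replicate 2 (edgeR, adjusted p = 0.0693), and 0.22 without that library and hypoxia replicate 4, where it passed the threshold (edgeR, adjusted p = 0.0292). Summed astrocyte markers, in comparison, were 3058 to 3201 CPM under hypoxia and 2935 to 3283 under normoxia. In edgeR 0 of 6 were called (2.15% of all genes). The other neurotensin receptors were Ntsr1, at 22.4 ± 1.67 and 19.4 ± 5.53 CPM (hypoxia and normoxia), and Sort1, the sorting receptor sortilin, at 288 ± 10.9 and 308 ± 50.2 CPM, with edgeR adjusted p of 0.581 and 0.651.

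Vipr2, the VIP and PACAP receptor of the suprachiasmatic nucleus, was at 5.66, 3.36, 6.09 and 4.84 CPM in hypoxia replicates 1 to 4 and at 8.74, 27.9, 7.01 and 4.90 CPM in normoxia replicates 1 to 4. A single library, normoxia replicate 2, lay far above the others. The log2 fold change was -1.28 ± 0.51 with it (edgeR, adjusted p = 0.210) and -0.45 ± 0.23 without it (adjusted p = 0.276). Vipr1, the other receptor shared by VIP and PACAP, was at 4.56 ± 1.82 and 4.77 ± 3.34 CPM (edgeR, adjusted p = 0.953). Adcyap1r1, the PACAP-preferring PAC1 receptor, was at 442, 450, 433 and 405 CPM in hypoxia replicates 1 to 4 and at 377, 375, 416 and 401 CPM in normoxia replicates 1 to 4. Its groups overlapped between hypoxia replicate 4 and normoxia replicate 3, and its log2 fold change was 0.14 ± 0.05 (edgeR, adjusted p = 0.181).

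Ntrk2, which encodes TrkB, was at 1022 ± 43.0 CPM under hypoxia and 939 ± 42.7 under normoxia, a log2 fold change of 0.12 ± 0.05 (edgeR, adjusted p = 0.221). Ngfr, the p75 neurotrophin receptor, was at 26.8 ± 0.503 and 21.5 ± 8.30 CPM (adjusted p = 0.456). The cholecystokinin receptors were Cckar, at 7.04 ± 0.904 and 6.97 ± 0.810 CPM, and Cckbr, at 10.2 ± 1.76 and 13.1 ± 6.07 CPM, the latter with 22.1 CPM in normoxia replicate 2. Grpr, the gastrin-releasing peptide receptor, was at 1.85 ± 0.278 CPM under hypoxia and 1.39 ± 0.287 under normoxia (edgeR, adjusted p = 0.308), the opposite order to Grp. Nmur2, the neuromedin receptor of brain, was at 2.07 ± 0.0860 and 1.98 ± 0.574 CPM. The prokineticin receptors were Prokr2, at 7.94 ± 0.535 and 10.1 ± 3.21 CPM, and Prokr1, at 0.947 ± 0.342 and 0.748 ± 0.258 CPM. None of these 7 had an edgeR adjusted p under 0.3. Nmur1, the peripheral neuromedin receptor, was too low to test, at 0.248 ± 0.0928 and 0.177 ± 0.0985 CPM.

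**Figure D4:**
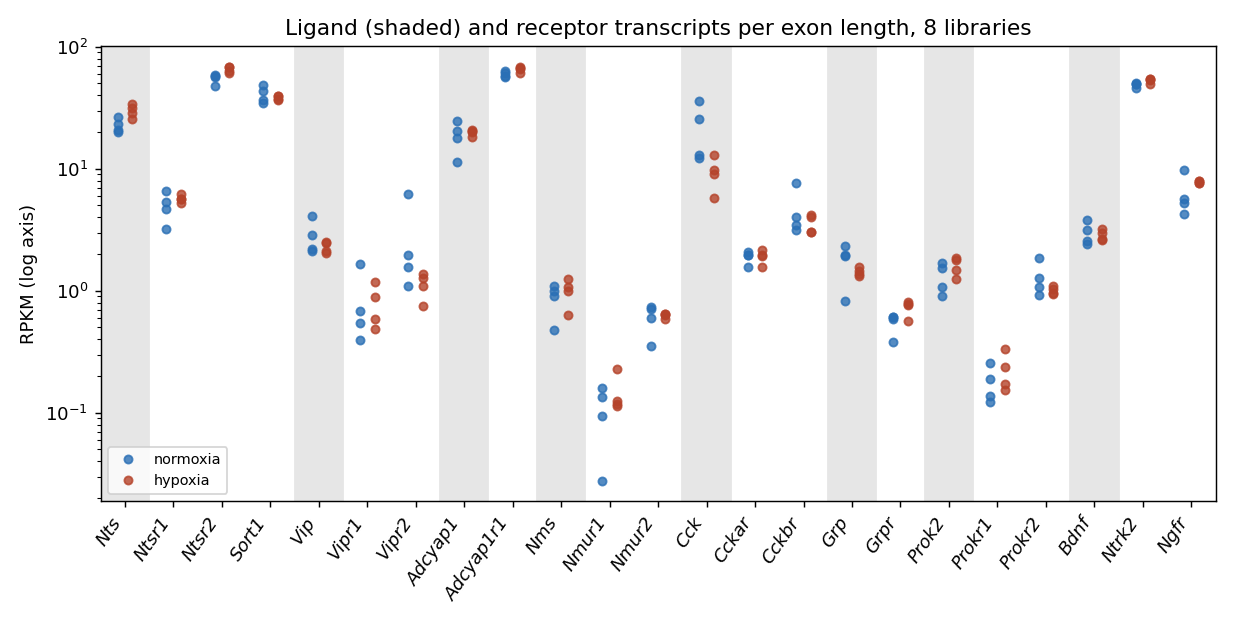
RPKM on a log axis for each ligand gene (shaded columns) and its receptors to the right; each point is a library, blue for normoxia and red for hypoxia. Adcyap1r1, Ntsr2 and Ntrk2 lie near 50 to 60 RPKM, above all 8 ligands in mean, while Grpr, Prokr1, Nmur1 and Nmur2 lie below 1.

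Per exon length, the receptor transcripts spanned a wider range than the ligands. The means over 8 libraries were 62.5 RPKM for Adcyap1r1, 60.0 for Ntsr2, 50.8 for Ntrk2 and 39.4 for Sort1, against 5.34 for Ntsr1, 1.92 for Vipr2 and 0.804 for Vipr1. For VIP, whose own transcript was at 2.55 RPKM, the receptors it shares with PACAP, Vipr1 and Vipr2, reached at most 1.67 and 6.26 RPKM in any library, against at least 56.9 RPKM for the PACAP-preferring Adcyap1r1. Grpr, at 0.641 RPKM, and Nmur2, at 0.613, were below their ligands Grp and Nms.

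Downstream of these receptors, none of the genes examined passed the threshold. The lists of family relatives, precursor processing, cyclic AMP to CREB, Gq, TrkB adaptors and neuronal activity genes, held 85 genes, of which 79 could be tested and 0 were called by edgeR, where 2.15% of all genes were called. In the cyclic AMP to CREB list 16 of 25 genes had a log2 fold change above 0, where 48.2% of all genes were, the median was 0.04, and 6 of 25 had an unadjusted p under 0.05, near the 19.3% of all genes. The smallest p there was that of Creb1, the transcription factor itself, at 54.2 ± 3.44 CPM under hypoxia and 64.4 ± 7.76 under normoxia, a log2 fold change of -0.25 ± 0.09 (edgeR, adjusted p = 0.156). In the Gq list the median of 10 genes was 0.01 and 0 of 10 had an unadjusted p under 0.05 in edgeR (19.3% of all genes). Among 8 TrkB adaptors the median was -0.01 and the gene with the smallest p was Kidins220, a scaffold of TrkB, with a log2 fold change of 0.07 (edgeR, adjusted p = 0.350).

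Neuronal activity genes, which include targets of the same cyclic AMP and calcium pathways, differed widely between normoxia libraries. Of 18 genes, 8 had a log2 fold change above 0, the median was -0.04 and 5 had an unadjusted p under 0.05 (19.3% of all genes). The smallest p was that of Vgf, a secreted neuropeptide precursor, at 306 ± 18.1 CPM under hypoxia and 254 ± 33.5 under normoxia, a log2 fold change of 0.27 ± 0.09 (edgeR, adjusted p = 0.146). Normoxia replicate 2 was the highest library for 12 of the 18, with Arc at 85.0 CPM against 22.7 to 26.1 in the other normoxia libraries. Without it, the median of the list was 0.33 and 11 of 18 had an unadjusted p under 0.05 in edgeR (22.4% of all genes). In this setting 2 of 18 were called higher under hypoxia. These were Fosb, an immediate early transcription factor, by 1.27 ± 0.25 on the log2 scale (edgeR, adjusted p = 0.0275) and Nr4a3, an orphan nuclear receptor induced by activity, by 0.94 ± 0.21 (adjusted p = 0.0390). None of the 8 neuropeptide genes was called in that setting, where 3.91% of all genes were, nor without normoxia replicate 2 and hypoxia replicate 4, where 6.98% were.

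Likeness across libraries was described by the Pearson correlation of log2 CPM over the 8 libraries, which share depth, normalization and the 2 groups. Among the 13561 genes whose mean reached 1 CPM, the nearest to Nts were Wdr95 (r = 0.97), Fbxl17 (0.97) and Dzip3 (0.95), and the nearest to Cck were Hcn4 (0.97), Ppm1h (0.96) and Arid3b (0.96). Vip was most like Lnx2, Rpf1 and Fam196b (each 0.98). Adcyap1 was most like Tuba1b (0.99), Rnd1 (0.99) and Mpp4 (0.98), and Grp most like Fxyd7 (0.98), Insig1 (0.98) and Stard4 (0.97). The nearest genes were Prrg4 (0.98), Bola2 (0.98) and Adamts16 (0.97) for Nms, Zfp623 (0.98), Dpy19l3 (0.96) and Hp1bp3 (0.96) for Prok2, and Tpd52l2 (0.95), Prdm13 (0.95) and Fam107b (0.94) for Bdnf. Between the 8 genes themselves, the correlation over the same 8 libraries was -0.83 for Nts and Cck, 0.76 for Adcyap1 and Grp, 0.75 for Adcyap1 and Nms, 0.73 for Adcyap1 and Bdnf, -0.70 for Grp and Prok2, 0.70 for Vip and Cck and -0.69 for Prok2 and Bdnf. With so few libraries, and with normoxia replicate 2 at an extreme in most of these pairs, the correlations are descriptions only.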

How the data were processed

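Whole-gene read counts were deposited by the authors as 1 table of 8 libraries with no normalization. Per the labels' protocols, RNA was column-purified and the TruSeq Stranded mRNA kit was used for the libraries. The submitters' processing notes list Trimmomatic, HISAT2 2.0.4, SAMtools, featureCounts, DESeq2 and the mm10 build. The sources used here do not give the annotation release, the strand setting or the treatment of multi-mapped reads. Symbols and exon lengths came from GENCODE M21 (GRCm38), which matched 55227 of 55487 gene identifiers.

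Counts were filtered with filterByExpr (minimum count 10, minimum total 15), scaled by TMM and tested with edgeR 4.0.16 (quasi-likelihood F test, group only, adjusted over all genes tested) in R 4.3.3. The SE is the log2 fold change divided by the square root of F. Log2 CPM used a prior count of 2. DESeq2 1.42.0 and limma-voom 3.58.1 were alternatives, with other scalings, no filter, an adjusted p of 0.1, a replicate block and libraries left out. The omission of normoxia replicates 1 and 2 together was chosen after seeing the data. The fit was tested on simulated counts.

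The 8 genes, the receptor, pathway and marker lists and the tests were chosen with earlier results of these data known. Named genes were the 8, their receptors, in each pathway list the members called or that with the smallest p, in each marker list the members called or the highest, and the 3 protein-coding genes most correlated with each of the 8. Genes named outside this rule (Prkcd, Arc, Fosb, Nr4a3, Nmb, Cpe) were chosen after their values were seen, and some genes the rule names are not reported here. Replicates within a group differed by more than sampling noise, so none was counted as a repeat.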

Additional observations from a re-analysis of the deposited data

Results flagged for a closer look

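The 46 sets of 4 libraries examined covered the 8 genes, their tested receptors and the total counts. In 3 of the 46, 1 library lay far from the other 3 of its group (past Dixon's limit for the gap over the range). Chance places about 5% of such sets past it. Vipr2, the VIP and PACAP receptor, was at 27.9 CPM in normoxia replicate 2 against 4.90 to 8.74 CPM in the other 3 normoxia libraries. Grpr, the gastrin-releasing peptide receptor, was at 0.957 CPM in the same library against 1.49 to 1.55 CPM. Ntrk2, which encodes TrkB, was at 958 CPM in hypoxia replicate 2 against 1037 to 1051 CPM in the other hypoxia libraries.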

How the results depend on the processing

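Over 18 other settings, the count of neuropeptide genes called moved from 0 to 1 with DESeq2 and to 1 at an adjusted p under 0.1 (Nts, log2 fold change 0.40 and 0.39 there), and was 0 to 0 with each library left out in turn, where 0.151% to 4.01% of all genes were called. Receptor calls moved to 1 with DESeq2 (5.9% of all genes) and to 1 without normoxia replicate 2 and hypoxia replicate 4 (6.98%). They were 0 to 0 with 1 library left out. Calls among the 79 pathway genes were 0 to 2 with 1 library left out, the 2 being without normoxia replicate 2 (3.91% of all genes). Without that library and hypoxia replicate 4 they were 4, where 6.98% of all genes were called. Of these 4, Fosb and Nr4a3 were higher and Creb1 and Arc lower under hypoxia. Leaving out 1 library gave -0.075 to 0.27 for Adcyap1, -0.0026 to 0.35 for Nms and -0.13 to 0.091 for Bdnf. The sign also turned without normoxia replicate 2 and hypoxia replicate 4, to -0.039 for Adcyap1 and -0.013 for Nms (Bdnf -0.16), and without normoxia replicates 1 and 2 together, to -0.099 and -0.0066. The cause was not tested. With 1 library left out, the range was 0.32 to 0.48 for Nts, -0.41 to -0.06 for Vip, -1.40 to -0.85 for Cck, -0.54 to -0.15 for Grp and 0.15 to 0.44 for Prok2. The replicate block gave 0.39 for Nts, -0.26 for Vip, 0.14 for Adcyap1, 0.18 for Nms, -1.10 for Cck, -0.26 for Grp, 0.31 for Prok2 and -0.04 for Bdnf, called 0 of the 8, and took the calls over all genes from 366 to 21. The labels share replicate numbers only: deviations of same-numbered libraries correlated at 0.04, -0.11, 0.04 and -0.03. Over all genes DESeq2 called 962, and edgeR called 675 without normoxia replicate 2. Depth limits Nms and Grp most, at 9 to 26 and 23 to 73 reads per library.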

Other observations

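Relatives of the 8 ligands were mostly near the limit of detection: of 10 genes, 4 could be tested and 0 were called by edgeR (2.15% of all genes). The median log2 fold change was -0.66, but -0.045 without normoxia replicate 2. Nmb, the bombesin-like peptide neuromedin B, was at 12.2 CPM in normoxia replicate 2 and at 1.86 to 2.12 CPM in the other 3 normoxia libraries, beside 2.65 ± 0.404 CPM under hypoxia (SD, n = 4). Its log2 fold change was -0.78 with all libraries and 0.39 without that library (edgeR, adjusted p = 0.514 and 0.235). Ntf3, neurotrophin 3, had the smallest p of the 4, with a log2 fold change of -0.87 (edgeR, adjusted p = 0.330).

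The machinery that cuts and inactivates peptide precursors was abundant and showed small differences. All 14 of its genes could be tested, 10 had a log2 fold change above 0 (48.2% of all genes), and the median was 0.07. In edgeR 0 were called (2.15% of all genes) and 2 of 14 had an unadjusted p under 0.05 (19.3%). Cpe, the carboxypeptidase that trims peptide ends, was at 1782 ± 35.0 CPM under hypoxia and 1780 ± 128 under normoxia. Scg5, the chaperone 7B2 of the convertase PC2, had the smallest p: it was at 183, 181, 184 and 175 CPM in hypoxia replicates 1 to 4 and at 167, 146, 171 and 163 CPM in normoxia replicates 1 to 4. The groups did not overlap, where 13.4% of all genes did not, and the log2 fold change was 0.16 ± 0.06 (edgeR, adjusted p = 0.158).

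Of 108 marker genes tested, 3 were lower under hypoxia past the threshold in edgeR, where 1.23% of all genes were. Neurod1, a neuronal transcription factor of cortex and hippocampus, was at 1.78 ± 0.368 CPM under hypoxia and 4.93 ± 1.01 under normoxia (adjusted p = 0.0148). Cnpy1, a marker of the midbrain and hindbrain border, was at 0.305 ± 0.290 and 3.72 ± 2.78 CPM (adjusted p = 0.0477). Slco1a4, a transporter of brain endothelium, was at 42.1 ± 4.32 and 58.5 ± 5.67 CPM (adjusted p = 0.0369). All 3 calls were lost with the replicate block (edgeR, adjusted p = 0.104, 0.146 and 0.121). Neurod1 was also lost without hypoxia replicate 1, 2 or 3 (adjusted p up to 0.0684). Cnpy1 and Slco1a4 were lost without any 1 library other than normoxia replicate 2 or hypoxia replicate 4 (adjusted p up to 0.171 and 0.142), and Cnpy1 in limma-voom and with robust estimation (adjusted p = 0.0881 and 0.0627). Of the 4 border markers tested, 0 had a log2 fold change above 0 (48.2% of all genes), and the median was -1.18. In edgeR 3 of 4 had an unadjusted p under 0.05 (19.3% of all genes). Without normoxia replicate 2, edgeR called 3 of 4 lower under hypoxia (2% of all genes). The list summed to 2.32 to 5.70 CPM under hypoxia and 3.14 to 19.8 CPM under normoxia. Pituitary markers summed to 18.5 to 60.1 CPM under hypoxia and 14.5 to 90.2 CPM under normoxia, the highest in normoxia replicate 2. This sum includes Pomc, which is also on the hypothalamic list.

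The marker genes at the highest level of the following lists did not pass the threshold. For the regions, means under hypoxia and normoxia were 274 ± 58.0 and 216 ± 108 CPM for Penk of the striatal list. They were 239 ± 14.1 and 217 ± 75.5 for Slc17a6 of the thalamic list and 48.7 ± 3.29 and 40.5 ± 9.87 for Zfhx3 of the suprachiasmatic list. Pomc, of both the pituitary and the hypothalamic list, was at 19.7 ± 2.86 and 14.6 ± 4.34. For cell types they were 1368 ± 131 and 1374 ± 169 CPM for neuronal Snap25, 1608 ± 82.9 and 1551 ± 163 for astrocytic Slc1a2, 3134 ± 658 and 3561 ± 989 for oligodendrocytic Mbp and 87.6 ± 6.19 and 83.3 ± 7.48 for endothelial Flt1. With all 8 libraries, none of the neuron, astrocyte, oligodendrocyte or microglia markers was called by edgeR, where 2.15% of all genes were. The same held for 0 of the 22 hypothalamic, 0 of the 12 thalamic and 0 of the 12 striatal markers. Without normoxia replicate 2, 1 of 10 neuron markers was called higher under hypoxia and 0 of the other lists just named, where 3.91% of all genes were called. In that setting 5 of the 10 neuron markers had an unadjusted p under 0.05 in edgeR (22.4% of all genes).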
